A study of Mus musculus with 13 samples.

Results

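The interferon receptors, Janus kinases (JAKs), STATs and SOCS proteins described here are 10 genes, Ifngr1, Ifngr2, Ifnar1, Ifnar2, Jak1, Jak2, Stat3, Stat4, Socs1 and Socs3. They were taken by name from the 19752 genes measured by a probe set with a single gene symbol, and all 10 were measured. Where a gene had more than 1 probe set, the one brightest on average was used, which applied to Socs3 with 2 probe sets. RNA came from thymocytes sorted from mice 2 weeks old, of mixed sex by label, and was hybridised to 13 Affymetrix arrays, 1 per sample. The V2 population was sorted as TCRδ and Vγ2 positive, HSA high, and without CD4 and CD8, which marks immature γδ thymocytes. Double positive (DP) cells are αβ-lineage thymocytes with both CD4 and CD8. Both populations were taken from wild type (WT) mice and from mice with a conditional knockout (cKO) of Sox4, which encodes a transcription factor of the HMG box family. The promoter that drives the Cre, the strain and the number of animals per sample are not given in the sources used here. The titles give 4 arrays for V2 WT, 4 for V2 cKO, 2 for DP WT and 3 for DP cKO. V2 titles are written in 2 forms, V2imm and immV2, and what the forms stand for is not stated. Whether replicates are separate animals is not stated, and p-values therefore reflect only how far these samples spread, which may be technical.

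Cytokine receptors of this pathway have no kinase of their own. A bound cytokine brings together receptor chains that carry JAKs, the JAKs phosphorylate the receptor tails, and STAT proteins that dock there are phosphorylated, pair and enter the nucleus. Interferon-γ acts through IFNGR1 and IFNGR2 with JAK1 and JAK2, and type I interferons act through IFNAR1 and IFNAR2 with JAK1 and TYK2. SOCS proteins are induced by STATs and shut the same receptors down, and SOCS1 is known in the thymus as a brake on interferon-γ and common γ chain cytokines. STAT4 carries interleukin-12 signals and STAT3 carries interleukin-6 and interleukin-23 signals.

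Population markers went against the label on 2 arrays, which are given apart here. On the log2 scale, DP cKO replicate 5 by label read 7.47 in Cd4 and 6.87 in Rag1 but 11.49 in Sox13 and 12.69 in Cpa3, genes high in the V2 arrays. V2 WT replicate 5 (immV2) by label read 12.65 in Cd4 and 13.02 in Rag1, against 7.73 in Sox13 and 5.39 in Cpa3. Fits used the other 11 arrays, which leaves 3 for V2 WT and 2 for DP cKO. In these, all 7 V2 arrays had Cd4 at 7.36 or below and all 4 DP arrays had it at 12.36 or above. Array medians ran from 122.2 to 137.2 intensity units. Precision is limited by how few arrays each group has. Every one of the 10 genes lay above the array median on all 11 arrays. Levels are log2 of the deposited RMA intensity, so a difference of 1 is a doubling of intensity.

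Sox4 itself did not separate the genotype labels. On the log2 scale it read 8.71, 8.64 and 9.68 in V2 WT and 8.07, 9.60, 8.11 and 8.23 in V2 cKO. V2 cKO replicate 5 (V2imm), at 9.60, was above both V2imm WT arrays, and the other 3 V2 cKO arrays were below all V2 WT arrays. In DP it was 9.37 and 8.55 in WT, and both cKO arrays, at 8.74 and 8.68, lay between these values. The sources used here do not say which part of Sox4 the probe set reads or whether the deletion removes it. WT and cKO below therefore name the label of an array, and every direction between genotypes rests on those labels.

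Both chains of the type I interferon receptor and the second chain of the interferon-γ receptor lie close together on chromosome 16 of the GRCm38.p6 assembly. Ifnar2 spans positions 91372783 to 91405589, Ifnar1 spans 91485032 to 91510523 and Ifngr2 spans 91547059 to 91564007, with the interleukin-10 receptor gene Il10rb between Ifnar2 and Ifnar1. Ifngr1 lies apart on chromosome 10 (19591949 to 19610229). Stat4 is on chromosome 1 (51987106 to 52107189). Socs1 is on chromosome 16 (10783808 to 10785536), Socs3 and Stat3 are on chromosome 11, Jak1 is on chromosome 4 and Jak2 is on chromosome 19.

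The bases before the start are shown for Ifngr1, Stat4 and Socs1, which passed the test in a comparison below, and for Ifnar2, which holds a motif. Sequences are from RefSeq (GRCm38.p6), read 5′ to 3′ on the gene's strand and end before the gene. They are chr10:19591699-19591948 (plus strand) for Ifngr1, chr1:51986898-51987105 (plus) for Stat4, chr16:10785537-10785786 (minus) for Socs1 and chr16:91372533-91372782 (plus) for Ifnar2. Capitals mark TTCNNNGAA, the letters of the STAT-bound GAS element, searched on both strands.
Ifngr1: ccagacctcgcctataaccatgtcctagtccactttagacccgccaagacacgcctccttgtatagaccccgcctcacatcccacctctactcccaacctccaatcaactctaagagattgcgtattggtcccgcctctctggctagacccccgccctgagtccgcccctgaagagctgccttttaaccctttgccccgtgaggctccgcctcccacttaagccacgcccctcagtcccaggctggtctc
Stat4: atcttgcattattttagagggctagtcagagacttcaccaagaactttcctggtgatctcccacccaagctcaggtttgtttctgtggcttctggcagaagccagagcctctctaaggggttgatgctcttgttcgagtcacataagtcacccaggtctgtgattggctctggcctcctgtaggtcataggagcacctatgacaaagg
Socs1: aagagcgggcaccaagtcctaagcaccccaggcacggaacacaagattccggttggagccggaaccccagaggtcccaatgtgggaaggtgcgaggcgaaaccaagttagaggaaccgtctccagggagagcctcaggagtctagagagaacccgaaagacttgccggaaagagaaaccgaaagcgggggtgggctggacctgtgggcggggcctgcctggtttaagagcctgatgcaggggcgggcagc
Ifnar2: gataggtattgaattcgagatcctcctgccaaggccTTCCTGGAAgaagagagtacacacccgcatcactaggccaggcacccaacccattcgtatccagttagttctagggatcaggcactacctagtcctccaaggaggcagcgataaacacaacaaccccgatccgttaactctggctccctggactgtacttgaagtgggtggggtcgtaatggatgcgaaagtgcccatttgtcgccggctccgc
Of the 11 windows of 250 bases that RefSeq gave for the 10 genes, 2 held TTCNNNGAA, those of Ifnar2 and Socs3, against 7.02% of all 32851 windows. The Socs3 window lies wholly inside the annotated gene. AACAAAG, letters to which HMG box factors such as SOX proteins can bind, was in 1 window, that of a second Stat4 start, which also lies inside its gene, against 5.03% of all windows. These matches describe letters in these windows only.

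The plot of all arrays shows which of these genes separated the populations and which did not.

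**Figure D1:**
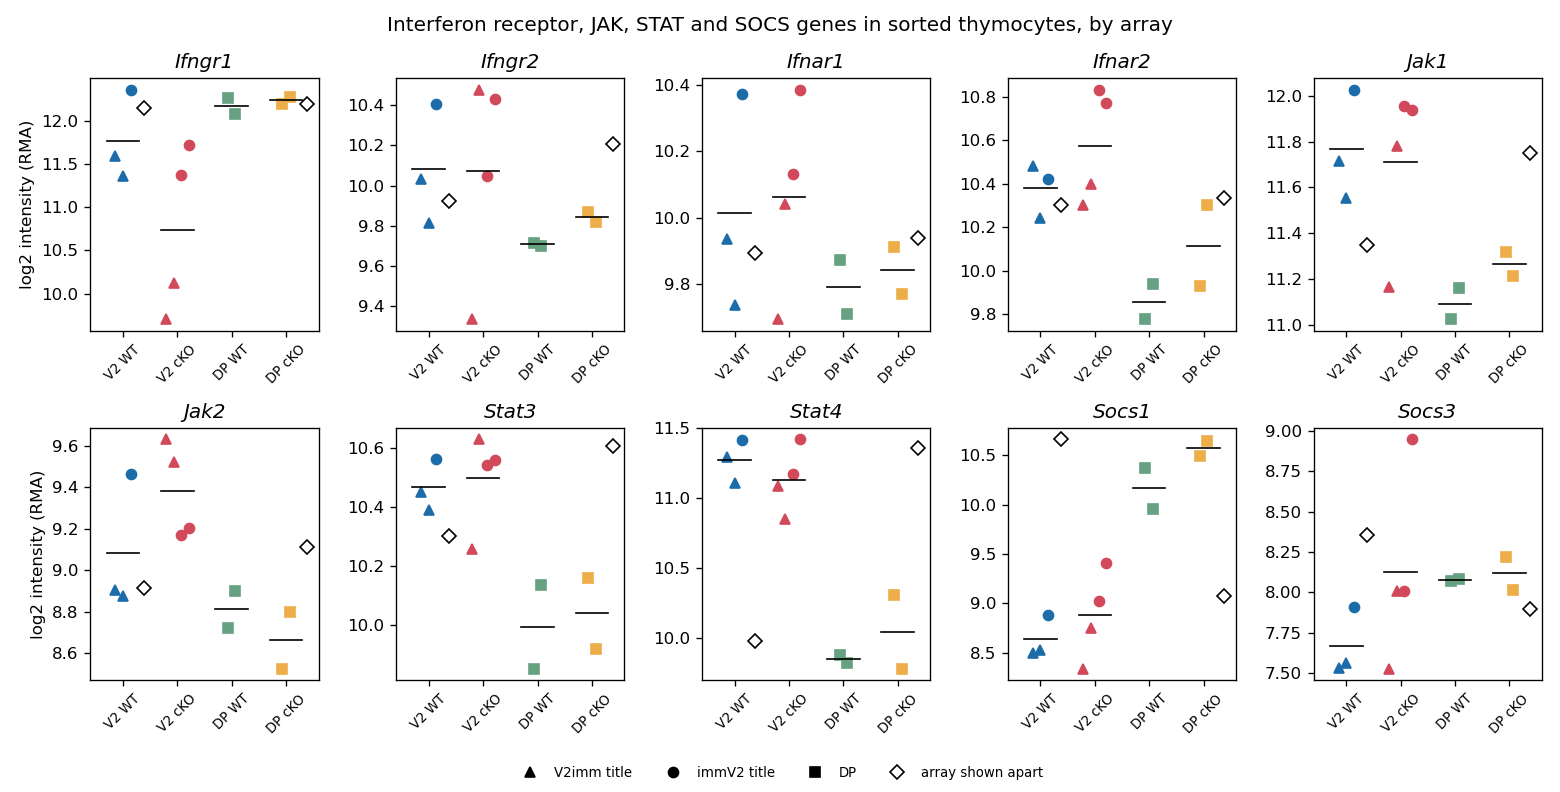
Log2 RMA intensity (vertical axis, own scale per gene) of the 10 genes in each array, by labelled group; filled points are the 11 arrays used in the fits, with triangles for V2imm titles, circles for immV2 titles and squares for DP, lines are group means, and open diamonds are the 2 arrays whose population markers went against their label. Stat4 and Socs1 separate V2 from DP arrays in both genotypes, and the lowest Ifngr1 values are those of the V2imm cKO arrays at 9.70 and 10.12.

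STAT4, the transducer of interleukin-12 signals, had more RNA in V2 cells than in DP cells, and SOCS1, the feedback inhibitor of JAKs, had less. In WT arrays Stat4 was 2.77-fold higher and Socs1 was 2.71-fold lower in V2. In cKO arrays Stat4 was 2.13-fold higher and Socs1 was 3.22-fold lower. Both comparisons come from the same fit, with a shared estimate of the spread and a shared term for the V2 title form. Ifngr1, the ligand-binding chain of the interferon-γ receptor, was 2.84-fold lower in V2 cKO than in DP cKO arrays, and in WT arrays its difference did not pass. The other 7 genes did not pass in either comparison. In sorted bulk RNA, fewer cells that express a gene and less RNA per cell cannot be told apart.

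The log2 intensity of Stat4 was 11.30, 11.11 and 11.42 in V2 WT and 11.09, 10.85, 11.18 and 11.42 in V2 cKO. It was 9.88 and 9.83 in DP WT, and 10.31 and 9.78 in DP cKO. All 7 V2 arrays were above all 4 DP arrays, and within each population the WT and cKO ranges overlapped. V2 WT exceeded DP WT by 1.47 (SE 0.21, limma adjusted p = 7.49e-04) and V2 cKO exceeded DP cKO by 1.09 (SE 0.19, limma adjusted p = 0.00415). Without DP cKO replicate 4 the second difference was 0.83 with adjusted p = 0.13, which ends the call, and with the V2imm arrays alone among V2 it was 0.92 with adjusted p = 0.095. The array labelled DP cKO replicate 5 had 11.36 and the one labelled V2 WT replicate 5 (immV2) had 9.98, each within the range of the population its markers matched.

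Socs1 showed the opposite order. Its level on the log2 scale read 8.50, 8.53 and 8.88 in V2 WT and 8.34, 8.76, 9.03 and 9.41 in V2 cKO. It was 10.37 and 9.95 in DP WT, and 10.49 and 10.65 in DP cKO. Every V2 array was below every DP array. V2 WT was below DP WT, with a difference of -1.44 (SE 0.22, limma adjusted p = 0.00124), and V2 cKO was below DP cKO, with -1.69 (SE 0.20, limma adjusted p = 2.04e-04). The array labelled DP cKO replicate 5 had 9.08, inside the V2 range, and the one labelled V2 WT replicate 5 (immV2) had 10.66, just above the DP range.

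In WT arrays limma called 2 of the 10 genes, 1 higher and 1 lower in V2, against 4.87% of all 19752 genes (3.2% higher, 1.67% lower). In cKO arrays it called 3 of the 10, 1 higher and 2 lower, against 5.45% (3.5% higher, 1.94% lower). Without V2 cKO replicate 5 (V2imm), whose Sox4 level goes against its label, Ifngr1 in cKO arrays was at -1.53 (limma adjusted p = 0.00109) and Stat4 at 1.15 (limma adjusted p = 0.00251). With the 2 arrays apart put back in their labelled groups, 0 of the 10 were called in WT arrays and 1 in cKO arrays, Ifngr1, against 0.0557% and 0.0354% of all genes. Over all 13 arrays Stat4 was at 1.10 (SE 0.43) and 0.65 (SE 0.38), and Socs1 at -1.02 (SE 0.48) and -1.19 (SE 0.42), in WT and cKO. In that fit 1672 and 1670 genes had an unadjusted p below 0.05. The median difference of the 10 genes in the 11 arrays was 0.37 in WT and 0.34 in cKO, and over all genes it was -0.02 and -0.01.

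**Figure D2:**
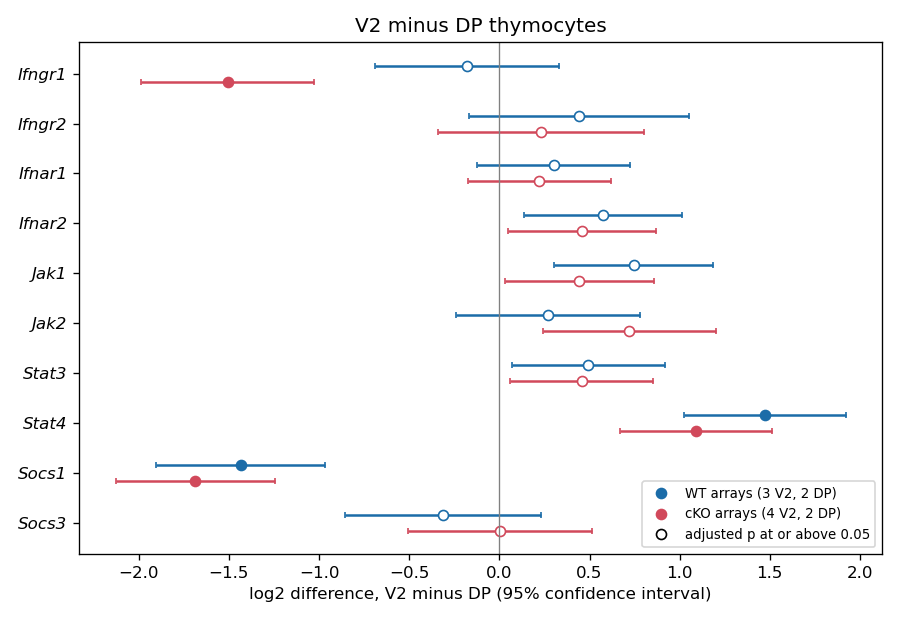
Log2 difference of V2 minus DP (horizontal axis) for the 10 genes, with 95% confidence intervals from limma, in WT arrays (blue) and cKO arrays (red); filled points have adjusted p below 0.05. Stat4 lies to the right and Socs1 to the left of 0 in both genotypes, while Ifngr1 lies at -0.18 in WT and at -1.51 in cKO.

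Some markers of other cell types also differed between the populations. Of 5 NK cell markers, 2 were called higher in V2 in both genotypes, Gzma and Eomes. Over all genes, 3.2% were called higher in WT and 3.5% in cKO arrays. Ncr1, Klrb1c and Klrk1 were below the array median on all arrays. The median difference of the NK list was -0.02 in WT and 0.04 in cKO. Its summed intensity was 286 to 382 in DP arrays and 1751 to 3083 in V2 arrays, without overlap. In V2 arrays most of this sum was Gzma, at 10.58 to 11.49 on the log2 scale. All 9 macrophage and dendritic cell markers were above the DP level in V2 in both genotypes, and 1, Fcer1g, was called. Their summed intensity was 658 to 784 in DP arrays against 667.0 to 5498 in V2 arrays. The part of either list in the population differences was not tested.

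Groups without overlap were common among all genes at these sample sizes. In WT arrays 7 of the 10 genes had V2 and DP ranges that did not overlap, against 27.2% of all genes; 5 were higher in V2, against 14.4%, and 2 lower, against 12.8%. In cKO arrays 5 of the 10 did not overlap, against 21.1%; 3 were higher, against 9.8%, and 2 lower, against 11.3%.

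Among the receptor chains, Ifngr1 varied most. Its log2 intensity was 12.27 and 12.08 in DP WT, and 12.19 and 12.29 in DP cKO. In V2 WT it was 11.59, 11.37 and 12.36, and in V2 cKO it was 9.70, 10.12, 11.38 and 11.73. The DP arrays thus lay within 0.20 of each other, while V2 arrays ran over 2.66. V2 WT and DP WT overlapped, with a difference of -0.18 (SE 0.24, 95% interval -0.69 to 0.33) in the fit with the title term. Without that term the WT difference was -0.40 (SE 0.51). It was -0.69 with the V2imm arrays alone among V2. With the immV2 arrays alone, where V2 WT replicate 3 was the only WT array, it was 0.19. All 4 V2 cKO arrays were below both DP cKO arrays, with a difference of -1.51 (SE 0.22, limma adjusted p = 9.97e-04). The distance was larger for V2imm than for immV2 titles. With V2imm arrays alone among V2 the difference was -2.33 (adjusted p = 2.32e-04), with the immV2 arrays alone it was -0.69 (adjusted p = 0.0668), and without a term for the title form it had adjusted p = 0.158. Both arrays shown apart had Ifngr1 near the DP level, at 12.20 and 12.15, and both values also lay inside the V2 WT range of 11.37 to 12.36.

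Ifngr2, the signalling chain of the interferon-γ receptor, was between 9.33 and 10.48 in the 7 V2 arrays (median 10.05) and between 9.70 and 9.87 in the 4 DP arrays (median 9.77). Its V2 minus DP difference was 0.44 (SE 0.28) in WT and 0.23 (SE 0.26) in cKO, neither called. Ifnar1, the type I interferon receptor chain that binds TYK2, ran from 9.69 to 10.39 in V2 and from 9.71 to 9.91 in DP. It differed by 0.30 (SE 0.20) in WT and 0.22 (SE 0.18) in cKO, with both intervals spanning 0. Ifnar2, the chain that binds JAK1, ran from 10.24 to 10.83 in V2 and from 9.77 to 10.30 in DP. Its difference was 0.57 (95% interval 0.14 to 1.01) in WT and 0.46 (0.05 to 0.87) in cKO, with limma adjusted p = 0.165 and 0.265. Of the 4 receptor chains, Ifngr1 in cKO arrays was the one that passed.

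Neither kinase passed a population comparison. Jak1, shared by interferon and common γ chain receptors, was 11.72, 11.55 and 12.03 in V2 WT and 11.17, 11.78, 11.95 and 11.94 in V2 cKO. It was 11.02 and 11.16 in DP WT, and 11.32 and 11.21 in DP cKO. WT ranges did not overlap, and the difference was 0.74 (SE 0.20, limma adjusted p = 0.0571), while in cKO arrays V2 cKO replicate 4 (V2imm) fell below both DP arrays and the difference was 0.44 (SE 0.19, adjusted p = 0.3). Over 22 alternative settings the WT difference of Jak1 stayed between 0.54 and 0.93 and passed in 6. The cKO difference ran from 0.21 to 0.68 and passed in 2. Without V2 cKO replicate 4 (V2imm) it was 0.58 in cKO (limma adjusted p = 0.0205) and 0.72 in WT (limma adjusted p = 0.00552). Of the arrays shown apart, DP cKO replicate 5 by label read 11.75 in Jak1, inside the V2 range. V2 WT replicate 5 (immV2) by label read 11.35, just above the highest DP array at 11.32. That value was inside the V2 range only through V2 cKO replicate 4 (V2imm), at 11.17. Jak2, which IFNGR2 carries, was 8.90, 8.88 and 9.47 in V2 WT and 9.63, 9.53, 9.17 and 9.20 in V2 cKO. It was 8.72 and 8.90 in DP WT, and 8.53 and 8.80 in DP cKO. V2 cKO arrays were all above DP cKO arrays, by 0.72 (SE 0.22, limma adjusted p = 0.0922), and WT arrays overlapped, with a difference of 0.27 (SE 0.24).

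STAT3 transduces interleukin-6 family and interleukin-23 signals and is known for its part in IL-17 programmes. Over the 11 arrays, Stat3 ran from 10.26 to 10.63 in V2 (median 10.54) and from 9.85 to 10.16 in DP (median 10.03), with no overlap. The array labelled DP cKO replicate 5 had 10.61. The one labelled V2 WT replicate 5 (immV2), whose markers matched DP cells, had 10.30, above the DP range. It was inside the V2 range only through V2 cKO replicate 4 (V2imm), at 10.26. The difference was 0.49 in WT (95% interval 0.07 to 0.92) and 0.46 in cKO (0.06 to 0.85), with limma adjusted p = 0.237 and 0.245. Socs3, an inhibitor of receptors that use the gp130 chain and a target of STAT3, was 7.53, 7.56 and 7.91 in V2 WT and 8.07 and 8.08 in DP WT. It was 7.53, 8.01, 8.01 and 8.95 in V2 cKO and 8.22 and 8.01 in DP cKO. The WT difference was -0.31 (SE 0.25) and the cKO difference was 0.01 (SE 0.24), and neither passed. The second Socs3 probe set read 6.80 to 7.43 over the 13 arrays, close to the array medians of 6.93 to 7.10.

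Between arrays labelled cKO and WT, none of the 10 genes passed in either population. In V2 limma called 0% of all 19752 genes, with 757 at an unadjusted p below 0.05, and in DP it called 0.0253%. Ifngr1 in V2 came nearest, at -1.27 in cKO against WT (SE 0.20, 95% interval -1.69 to -0.84, limma adjusted p = 0.0628). Over 24 alternative settings it kept its sign and passed in 4. Some of these settings, such as leaving out a DP array or changing the moderation, cannot move this difference. Its sign was fixed there. The other 9 genes in V2 ran from -0.19 (SE 0.17) for Stat4 to 0.36 (SE 0.21) for Socs3, and their intervals all spanned 0.

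**Figure D3:**
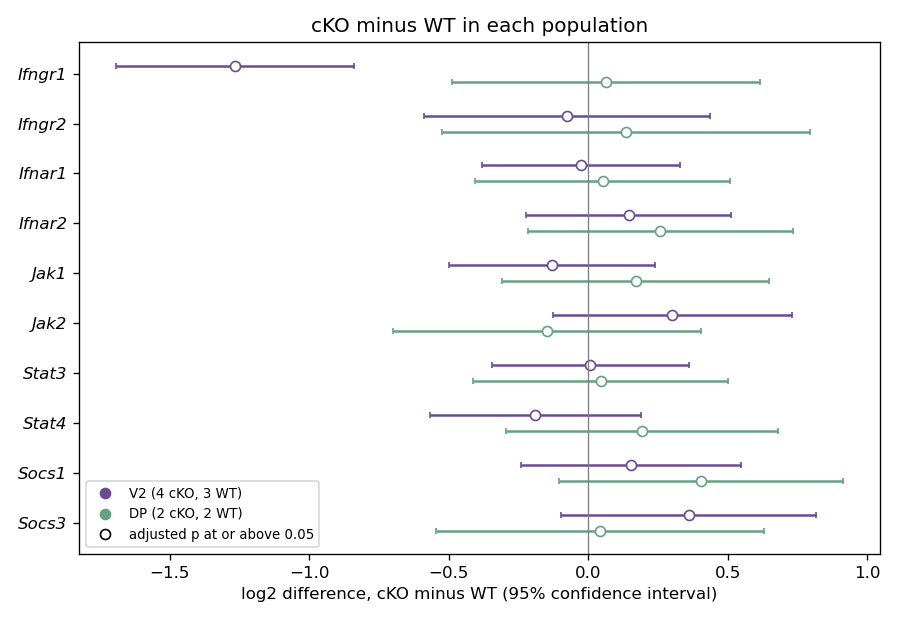
Log2 difference of cKO minus WT (horizontal axis) for the 10 genes, with 95% confidence intervals from limma, in V2 (purple, 4 against 3 arrays) and DP (green, 2 against 2 arrays); open points have adjusted p of 0.05 or above, which holds for all of them. Ifngr1 in V2 lies at -1.27 and its interval does not reach 0, and all other intervals span 0.

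The Ifngr1 difference in V2 was in the same direction within both title forms. In V2imm arrays it was 11.59 and 11.37 in WT against 9.70 and 10.12 in cKO, a difference of -1.57 (SE 0.25, limma adjusted p = 0.116). In immV2 arrays it was 12.36 in the 1 WT array against 11.38 and 11.73 in cKO, a difference of -0.81 (SE 0.21, adjusted p = 0.388). Across title forms the groups overlapped, as they did for all 10 genes, against 3.45% of all genes without overlap, since both immV2 cKO arrays were above the lowest V2imm WT array. Without the title form as a term the difference was -1.04 (SE 0.43). With both arrays apart put back in their labelled groups, it was -1.14 (SE 0.19, adjusted p = 0.234). The call moved with single arrays, with adjusted p = 0.032 without V2 cKO replicate 5 (V2imm), the array whose Sox4 level goes against its label, where the difference was -1.30. Leaving out V2 WT replicate 4 (V2imm) gave adjusted p = 0.48, and leaving out V2 cKO replicate 4 (immV2) gave 0.0498. Without V2 cKO replicate 4 (V2imm), lowest in Ifngr1, the difference was -1.08 (adjusted p = 0.0541).

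Several marker levels also differed among the V2 arrays. All 6 measured γδ V2 markers were lower in V2 cKO than in V2 WT in the fit, with a median difference of -1.06 and none called. Cpa3 changed little, at 12.31, 12.15 and 12.39 in V2 WT and 12.38, 12.22, 11.91 and 12.20 in V2 cKO. Within V2imm arrays Cpa3 was slightly higher in cKO, by 0.07. The summed intensity of the 6 markers was 16212 to 17457 in V2 WT and 8881 to 12671 in V2 cKO. In the fit with the title term all 9 macrophage and dendritic cell markers were above WT in V2 cKO, with none called, while by plain group means Cd74, H2-Aa and Itgax were below WT, at 8.35 against 8.78, 7.36 against 7.57 and 6.34 against 6.36. Their summed intensity was 667.0 to 2914 in V2 WT and 763 to 5498 in V2 cKO. By title form it was 1468 to 5498 in V2imm and 667.0 to 1039 in immV2 arrays. Cd74, the invariant chain gene of antigen presentation, was 10.23 and 9.93 in V2imm WT and 8.19 and 10.98 in V2imm cKO, above the array medians, and 6.19, 7.77 and 6.48 in immV2 arrays. Fcer1g was above the medians in all 4 V2imm arrays, at 7.73 to 8.49, whereas Itgax and Adgre1 were below the median on all V2 arrays. V2 cKO replicate 4 (V2imm), lowest in Ifngr1, also had the highest summed intensity of granulocyte markers, 552 against 347 to 433 in the other V2 arrays. Of these markers only Mpo, at 7.74, was above the median of that array, 7.10. Elane, at 6.28, was lower there than in both V2imm WT arrays. The same array had the narrowest middle range of log2 intensities, with quartiles at 6.09 and 8.38. Cd24a encodes HSA, on which V2 cells were sorted. It read 12.21, 12.02 and 11.67 in V2 WT, 12.31 and 11.61 in V2imm cKO, and 10.38 and 9.46 in immV2 cKO. In DP arrays Cd24a was 11.97 and 12.27 in WT and lower in cKO, at 10.89 and 10.93. The V2imm cKO arrays, lowest in Ifngr1, lay on either side of the V2 WT range in Cd24a, replicate 4 above it and replicate 5 below it. The part of these markers in the Ifngr1 values was not tested.

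**Figure D4:**
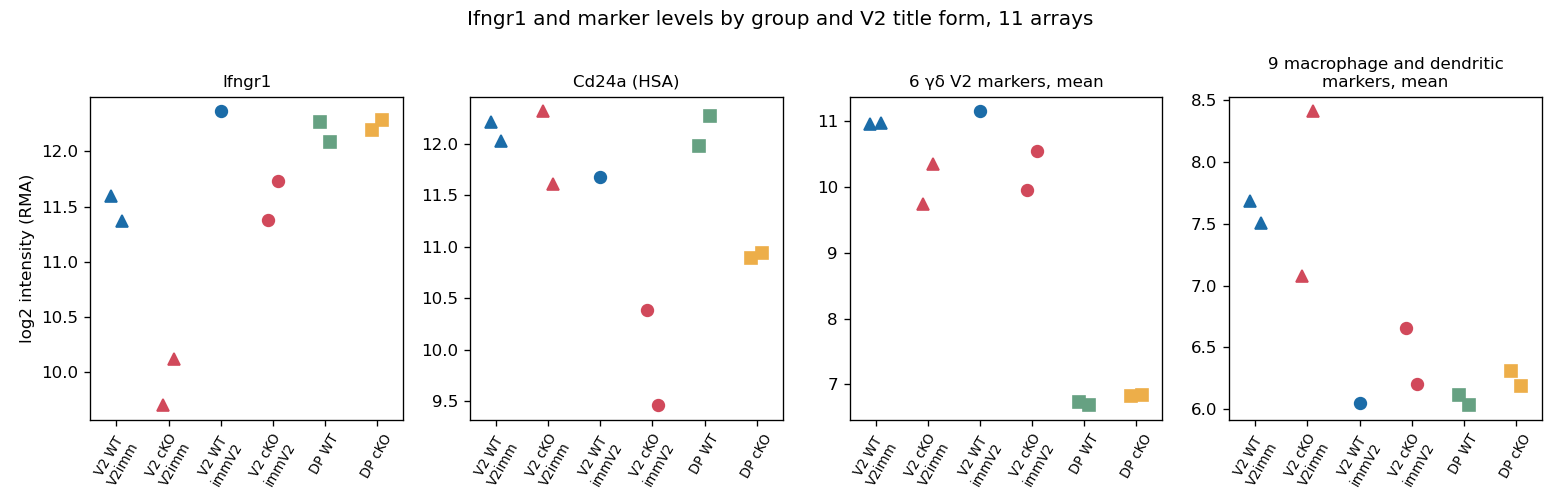
Log2 RMA intensity in the 11 arrays by group and V2 title form for Ifngr1, for Cd24a (the gene of HSA), and for the mean over 6 γδ V2 markers and over 9 macrophage and dendritic cell markers; each point is 1 array and each panel has its own scale. V2imm cKO arrays are lowest in Ifngr1 at 9.70 and 10.12, and immV2 cKO arrays are lowest in Cd24a at 10.38 and 9.46.

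In DP cells the differences between cKO and WT ran from -0.15 (SE 0.26) for Jak2 to 0.41 (SE 0.24) for Socs1, and all intervals spanned 0. Ifngr1 differed by 0.06 (SE 0.26, 95% interval -0.49 to 0.62). Ranges did not overlap for 3 of the 10 genes, Ifngr2, Jak1 and Socs1, against 29.8% of all genes, and each was higher in cKO, against 15.8%. The knockout differences of the populations were also set against each other. None of the 10 genes passed this test, in which limma called 0% of all genes and 372 had an unadjusted p below 0.05. Ifngr1 differed most, by -1.33 (SE 0.32, 95% interval -2.03 to -0.63, unadjusted p = 0.00126, limma adjusted p = 1).

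Over the 11 arrays the standard deviation was 0.89 for Ifngr1, 0.87 for Socs1 and 0.66 for Stat4, above the 96.1 percentile of all genes or at it. For the other 7 genes it lay between 0.25 for Ifnar1 and 0.40 for Socs3. The genes with a profile over the 11 arrays nearest to each of the first 3 were found by the root mean square difference of mean-centred log2 values. For Stat4 they were Irf1, an interferon-induced transcription factor (0.19), Lcp1, which encodes the actin-bundling protein L-plastin (0.19), and Prkcq, which encodes protein kinase C theta (0.19). For Socs1 they were Abcc5 (0.24), Agfg2 (0.27) and Kremen1 (0.27). For Ifngr1 the distances were larger, 0.39 for Cd47, 0.46 for Gm10589 and 0.47 for Lcmt2. These arrays share their populations and their platform, so the distances are a description.

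Among the other kinases and STATs of the pathway, Irf9 was higher in V2 and the rest did not pass. Of 8 listed, 6 were measured by a single-symbol probe set, and 1 of the 6 was called in each population comparison, against 4.87% of all genes in WT and 5.45% in cKO arrays. This was Irf9, which encodes a DNA-binding partner of STAT2 in type I interferon signalling, higher in V2 by 1.02 (SE 0.23, limma adjusted p = 0.0188) in WT and by 1.31 (SE 0.21, limma adjusted p = 0.00208) in cKO. Tyk2, the kinase of IFNAR1, differed by 0.93 (SE 0.28) and 0.58 (SE 0.26) without passing. Stat2, Stat5a, Stat5b and Stat6 did not pass either.

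Of 15 other SOCS genes and inhibitors, all measured, 2 were higher in V2 and 0 lower in each genotype. Of all genes, 3.2% were called higher and 1.67% lower in WT arrays, and 3.5% and 1.94% in cKO arrays. Usp18, which blocks signalling at IFNAR2, was 10.27 ± 0.19 (SD, n = 3) in V2 WT and 7.58 ± 0.14 (SD, n = 2) in DP WT, a difference of 2.69 (SE 0.29, limma adjusted p = 6.93e-05). In cKO arrays its difference was 2.37 (SE 0.27, limma adjusted p = 1.32e-04). Ptpn2, a phosphatase of JAK1 and STATs, was higher by 0.94 (SE 0.23) and 0.99 (SE 0.21). Cish differed by 0.62 (SE 0.21) and 0.63 (SE 0.19) and the phosphatase gene Ptpn1 by 0.21 (SE 0.20) and 0.54 (SE 0.19), without passing. Socs1 moved the other way from Usp18 and Ptpn2 in both genotypes.

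Receptors that feed the same JAKs and STATs were measured for 14 of 15 listed. In WT arrays 3 were higher in V2 and 1 was lower, and in cKO arrays 5 were higher and 1 was lower, beside 3.2% higher and 1.67% lower over all genes in WT and 3.5% and 1.94% in cKO. Il12rb2, the interleukin-12 receptor chain that STAT4 docks to, was higher by 1.33 (SE 0.26, limma adjusted p = 0.00747) in WT and 1.25 (SE 0.24, adjusted p = 0.00695) in cKO. Il7r was higher by 3.97 (SE 0.23) and 4.14 (SE 0.22), and Il2rb by 3.49 (SE 0.26) and 3.08 (SE 0.25). Il4ra, the interleukin-4 receptor chain, was lower by -1.85 (SE 0.19) and -0.85 (SE 0.18). Il6ra and Il10ra passed in cKO arrays, at 1.79 (SE 0.32) and 1.47 (SE 0.35), and in WT arrays were at 0.54 (SE 0.34) and 1.32 (SE 0.38). The test of the difference between genotypes called no gene. Il10rb, next to Ifnar2 on the chromosome, differed by 0.41 (SE 0.38) and -0.06 (SE 0.36).

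Genes known to be induced by interferon-γ were measured for 13 of 18 listed. In WT arrays 2 were higher in V2 and 0 lower, and in cKO arrays 7 were higher and 0 lower, beside 3.2% and 3.5% of all genes called higher. The test of the difference between genotypes called no gene. Irf1, an interferon-induced transcription factor gene, was 9.60 ± 0.26 (SD, n = 3) in V2 WT and 8.29 ± 0.08 (SD, n = 2) in DP WT, a difference of 1.36 (SE 0.20, limma adjusted p = 9.47e-04), and 1.38 (SE 0.19) in cKO. Irgm1, an immunity-related GTPase gene, was higher by 1.15 (SE 0.21) and 1.29 (SE 0.20). Cxcl10, a chemokine gene, was higher in cKO arrays by 0.97 (SE 0.19), and in WT arrays it differed by 0.73 (SE 0.20) without passing. Gbp5, a guanylate-binding protein gene, was higher in cKO arrays by 0.72 (SE 0.17) and differed by 0.05 (SE 0.18) in WT arrays, with all its group means below the array medians, at 5.51 to 6.23. Of the 4 interferon genes listed none was called, and Ifng read 6.45 ± 0.16 (SD, n = 3) in V2 WT and 6.34 ± 0.27 (SD, n = 2) in DP WT, below every array's median.

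Of 10 genes listed as STAT3 or STAT5 targets, 3 were higher and 1 was lower in V2 WT, and 4 were higher and 1 was lower in V2 cKO, where the shares of all genes were 3.2% and 1.67% in WT and 3.5% and 1.94% in cKO. Bcl2, a survival gene, was higher by 2.73 (SE 0.26) in WT and 2.61 (SE 0.24) in cKO. Osm, which encodes oncostatin M, was higher by 1.11 (SE 0.22) and 1.38 (SE 0.20), and Batf by 0.94 (SE 0.16) and 1.03 (SE 0.15). Bcl6, a transcriptional repressor gene, was lower by -3.29 (SE 0.24) and -2.92 (SE 0.23). Between cKO and WT no gene of these pathway lists was called in V2 or in DP. Nearest in V2 among the receptors were Il4ra at 0.70 (SE 0.16, limma adjusted p = 0.269), Il6ra at 1.07 (SE 0.28, adjusted p = 0.49) and Il6st, the gp130 chain, at -0.51 (SE 0.17, adjusted p = 0.924).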

How the data were processed

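Per the labels, RNA from sorted thymocytes was biotin labelled with a whole-transcript kit for Affymetrix arrays. The authors deposited 1 intensity per probe set; the submitters' processing notes name RMA and Affymetrix Power Tools, and their versions are not given in the sources used here. Their linear scale was read from the values (6.16 to 23800). Array medians differed slightly, so scaling was also varied.

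The log2 of each intensity was taken. Of 24922 probe sets, the platform annotation gave 21425 a single symbol, 1399 more than 1 and 2098 none, which left 19752 genes; no array detection call was used. Groups came from titles; a V2imm title with KO was read as the Sox4 knockout. One limma 3.58.1 fit in R 4.3.3 (lmFit, eBayes with intensity trend) held 4 group means and a term for the V2 title form over 11 arrays. Small groups thus share 1 estimate of the spread. All 5 comparisons were tested two-sided at 0.05 after adjusting p over all genes by Benjamini-Hochberg. The fit was tested on simulated data. The 10 genes, the lists, the tests and the exclusion of 2 arrays were chosen with earlier results of these data known. Named list genes were up to 4 per list and comparison with the smallest p; Il10ra and Il10rb fall outside this rule and were chosen after their values were seen. Motifs were searched in RefSeq windows (GRCm38.p6), and plots used Python 3.11.15 with matplotlib 3.10.9. Alternatives were scaling, filters, probe set choice, moderation, blocks and left-out arrays.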

Additional observations from a re-analysis of the deposited data

Results flagged for a closer look

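Jak2 stood out in 1 array of the 4 labelled V2 WT. V2 WT replicate 3 (immV2) read 9.47 on the log2 scale and the other 3, one of them the array whose markers match DP cells, read 8.88 to 8.92, so the gap took up a share of 0.932 of the range. As 20 groups were looked at, such a gap can arise by chance. The group mixes both title forms and holds the array with DP markers, so a chance rate for like replicates does not apply. In the V2imm arrays alone Jak2 differed between cKO and WT by 0.69 (SE 0.23), and in immV2 arrays, whose only kept WT array is this one, by -0.28 (SE 0.20).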

How the results depend on the processing

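The 50 differences of the 10 genes were recomputed under alternatives, giving 1130 values, of which 1059 kept direction and side of the threshold, 8 lost the call, 13 gained it and 50 changed sign. Some alternatives cannot move a difference, such as leaving out an array of a population that the difference does not use. The direction was fixed in advance there, so the count of values that kept it overstates how far directions were tested. None of the called differences changed sign, and the largest difference that did was 0.45. With all 13 arrays as labelled, the genes called fell from 2 to 0 of 10 in WT populations and from 3 to 1 in cKO populations, and over all genes from 962 to 11 and from 1076 to 7. In V2, cKO against WT called 1 of 10 genes with quantile normalization and 1 with the replicate block, Ifngr1 in both. Leaving out 1 array at a time called 0 to 1 in V2, 0 to 0 in DP, 2 to 3 in WT populations and 2 to 4 in cKO populations.

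Counts over all genes moved more. Without the title term they were 594 in WT and 637 in cKO populations, and with 1 array left out 477 to 1575 and 480 to 1632. In V2, cKO against WT gave 0 genes, 11 with quantile normalization, 6 with robust moderation, 6 in V2imm arrays, and 0 to 44 with 1 array left out. In DP it gave 5 genes, 0 with 13 arrays, 0 in DP arrays alone, 3 without the title term, 9 with quantile normalization and 0 to 14 with 1 array left out; of the 5, 60% were higher, and of the 9, 44.4%. The difference of the knockout effects gave 0 genes, 1 with quantile normalization and 0 to 4 with 1 array left out.

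Replicate numbers were checked as pairs. Deviations from group means of same-numbered arrays correlated at 0.273 and -0.108 in V2imm, 0.524 in immV2 and 0.179 in DP. In V2 these deviations keep the shift between title forms. In DP each group has 2 arrays, whose deviations mirror each other. The correlations therefore cannot show whether the numbers are pairs, and the main fit did not use them as pairs. The replicate block gave 34 genes in V2, 8 in DP and 4 for the difference of the knockout effects, Ifngr1 in V2 at -1.37 (limma adjusted p = 0.00579), and Ifngr1 in DP at -0.0756. The population comparisons could not be fitted with the block, since each block lies in 1 population.

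Sign changes were in differences that were not called. In V2, cKO against WT, 13 arrays gave Ifngr2 0.0296, Ifnar1 0.0783, Jak1 0.0476, Stat4 0.181 and Socs1 -0.262. Ifnar1 was 0.0045 with quantile normalization, 0.0477 without the title term and 0.0310 in V2imm arrays, where Ifnar2 was -0.0129. In immV2 arrays Jak2 was -0.279 and Stat3 -0.0135. In DP, 13 arrays gave Jak2 0.0013, Socs1 -0.0917 and Socs3 -0.0324. For the difference of the knockout effects, immV2 arrays gave Ifnar2 0.124 and Jak2 -0.131. In WT populations immV2 arrays gave Ifngr1 0.187. In cKO populations Socs3 was -0.0666 with quantile normalization, -0.0021 with median centring, -0.0420 as the mean of probe sets and -0.350 in V2imm arrays.

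With single arrays left out, sign changes in V2, cKO against WT, gave Ifnar1 0.00826, 0.0245, 0.0310 and 0.0451, Stat3 -0.0112 and -0.0888, Jak1 0.0312, Ifngr2 0.195 and Ifnar2 -0.0129. In DP, leaving out DP arrays gave Ifngr1 -0.0301 to 0.158, Ifnar1 -0.0303 to 0.134, Stat3 from -0.0979, Stat4 -0.0696 to 0.455 and Socs3 -0.0610 to 0.145. For the difference of the knockout effects, Ifngr2 reached 0.0591 and Stat3 0.0533 without V2 cKO replicate 4 (V2imm), and leaving out DP arrays gave Ifnar1 -0.161 to 0.00291, Ifnar2 -0.301 to 0.0749 and Stat3 -0.179 to 0.106. Without V2 WT replicate 3 (immV2), V2 WT minus DP WT was 0.127 for Ifngr1 and -0.117 for Jak2. In cKO populations Socs3 was -0.0655 without V2 cKO replicate 5 (V2imm), where Ifngr2 was -0.0215, -0.220 without V2 cKO replicate 4 (immV2), and -0.0973 to 0.108 without 1 DP cKO array. The cause of these changes was not tested.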
